A study of Mus musculus with 10 samples.

Results

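The transcripts of 9 enzymes and enzyme subunits of the tricarboxylic acid (TCA) cycle (Cs, Idh3a, Idh3b, Idh3g, Ogdh, Suclg1, Suclg2, Fh1 and Mdh2) were measured by RNA-seq in mouse liver. The members were taken by gene symbol, and all 9 were found among the 41388 genes listed and among the 13444 genes expressed highly enough to be tested. The study asked what hepatocyte NAMPT does in fasting. NAMPT, nicotinamide phosphoribosyltransferase, is the rate-limiting enzyme of NAD+ salvage. Livers came from 12-week-old C57B/6J littermates, with 1 library per mouse. WT mice were NAMPT fl/fl, with LoxP sites in a working Nampt gene, and NAMPT LKO mice lacked Nampt in hepatocytes through a Cre recombinase driven by the Albumin promoter, so the other cells of the liver kept the gene. The 10 libraries were 2 from WT mice fasted for 22 h and refed for 2 h (WT refed, called fed in the study), 3 from WT mice fasted for 24 h (WT fasting) and 5 from NAMPT LKO mice fasted for 24 h (NAMPT LKO fasting). There was no refed NAMPT LKO group, so the response of NAMPT LKO livers to fasting cannot be told apart from the effect of the deletion when they are set against WT refed livers.

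The TCA cycle runs in the mitochondrial matrix and oxidizes the acetyl group of acetyl-CoA to carbon dioxide, passing electrons to NADH and FADH2 for the respiratory chain. Most of its oxidative steps need NAD+ as the electron acceptor, which is why the cycle is of interest where NAD+ salvage is lost. In liver the cycle also supplies malate and oxaloacetate for gluconeogenesis and citrate for fatty acid synthesis, and its demand shifts between fasting and refeeding. All 9 genes are nuclear.

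Total counts per library ranged from 30603080 to 43434139, and the members had between 994 and 11421 counts per library, so counting error was small beside the spread between mice. Nampt, the targeted gene, was at 66.8 and 76.9 CPM (counts scaled to a common library size, with edgeR's TMM correction for composition) in WT refed livers. It was at 62.1, 72.3 and 139 CPM in WT fasting and between 11.6 and 15.1 CPM in NAMPT LKO fasting livers, so the groups with and without the deletion did not overlap (log2 fold change -2.81 ± 0.22 SE against WT fasting, adjusted p = 0.00102, edgeR's quasi-likelihood test). The hepatocyte markers Alb, Apoa1, Ttr, Cps1, Cyp2e1 and Tat summed to between 68550 and 105100 CPM of the library totals, and the pancreas markers to at most 0.316. Kupffer cell and macrophage markers summed to between 120 and 353 CPM, with overlapping ranges in the 3 groups. In bulk liver, fewer cells of a type and less RNA per cell cannot be told apart. NAMPT LKO fasting mouse 5 stood apart from its group, with 21.1% of counts on the mitochondrial genome against 10.4% to 12.9% in the other 4, and WT fasting mouse 3 had the lowest share, 7.42%. Values that mouse 5 moved most are therefore also given without it.

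No member passed the test in any of the 3 comparisons, and the 95% intervals of all 27 differences lay between -1 and 1 on the log2 scale. The values behind this are given below in the order of the cycle, as TMM-normalized CPM.

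Citrate synthase, encoded by Cs (ENSMUSG00000005683, chr10:128337832-128362479, plus strand, GRCm38), joins acetyl-CoA to oxaloacetate at the entry of the cycle. Cs was at 104 and 105 CPM in WT refed, at 99.0, 97.4 and 88.8 CPM in WT fasting, and at 88.9, 88.9, 82.7, 97.8 and 59.3 CPM in NAMPT LKO fasting livers. Both refed livers lay above all 8 fasted livers, while the 2 fasted groups overlapped and the lowest value was that of NAMPT LKO mouse 5. WT fasting and NAMPT LKO fasting livers did not overlap the refed livers for 49.7% and 33.5% of all genes tested. No share was computed for the 2 fasted groups together.

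Isocitrate dehydrogenase 3 is the NAD+-linked enzyme that turns isocitrate into 2-oxoglutarate. It is built from a catalytic alpha subunit (Idh3a), a beta subunit (Idh3b) and a gamma subunit (Idh3g). Idh3a (ENSMUSG00000032279, chr9:54586511-54604661, plus strand) was at 34.9 and 41.1 CPM in WT refed, at 34.4, 34.5 and 23.5 CPM in WT fasting, and at 31.8, 31.6, 24.3, 31.7 and 31.8 CPM in NAMPT LKO fasting livers. One mouse in each fasted group, WT fasting mouse 3 and NAMPT LKO mouse 3, lay well below the rest, and the fasted groups overlapped. Idh3b (ENSMUSG00000027406, chr2:130279309-130284547, minus strand) was at 158 and 175 CPM in WT refed, at 167, 184 and 181 CPM in WT fasting, and at 158, 160, 149, 171 and 211 CPM in NAMPT LKO fasting livers. Idh3g (ENSMUSG00000002010, chrX:73778963-73786897, minus strand) was at 69.2 and 77.8 CPM in WT refed, at 73.6, 75.7 and 75.2 CPM in WT fasting, and at 75.9, 64.9, 65.4, 69.6 and 75.1 CPM in NAMPT LKO fasting livers. All 3 groups overlapped for both of these partner subunits, and the coefficient of variation of Idh3g was 6.39% over the 10 libraries.

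The promoters of these subunits were searched for CCGGAAG, the core bound by ETS factors such as GABPA, a known regulator of nuclear genes for mitochondrial proteins. On either strand it was found in 8.86% of 32851 RefSeq promoters of 300 bases (GRCm38.p6) and in 2 of the 8 members that have an entry, Idh3b and Idh3g. Idh3a has no entry in that table. The 2 matches are shown with 10 bases on each side, 5′ to 3′ on the strand of the gene, with the motif in capitals (CTTCCGG is CCGGAAG read on the other strand).
Idh3b chr2:130284440-130284466: accgcgctcgCTTCCGGcgtcacttcc
Idh3g chrX:73786985-73787011: gctctaggcaCCGGAAGggggcgtaag
The match of Idh3b overlaps the RefSeq start and that of Idh3g lies 104 bases before it. GCGCATGC, the motif of NRF1, was in 2.71% of promoters, and AAGGTCA, the half-site of estrogen-related receptors, in 4.72%. Among the members both were found for Ogdh alone, which has more than 1 annotated start in the table. The 3 motifs do not contain one another, and a match is a description of the letters, not a bound site.

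The 2-oxoglutarate dehydrogenase complex makes succinyl-CoA and NADH, and Ogdh (ENSMUSG00000020456, chr11:6291633-6356642, plus strand) encodes its E1 component. Ogdh was at 213 and 223 CPM in WT refed, at 233, 252 and 255 CPM in WT fasting, and at 228, 250, 230, 227 and 216 CPM in NAMPT LKO fasting livers. The 3 WT fasting livers lay above both refed livers, and the NAMPT LKO livers overlapped both groups. WT fasting and WT refed livers did not overlap for 49.7% of all genes tested.

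Succinyl-CoA ligase makes succinate and a nucleoside triphosphate. Suclg1 encodes the alpha subunit shared by both forms of the enzyme, Suclg2 the beta subunit of the GTP-forming one, and Sucla2, outside the 9, that of the ATP-forming one. Suclg1 (ENSMUSG00000052738, chr6:73248382-73276911, plus strand) was at 214 and 216 CPM in WT refed, at 221, 249 and 216 CPM in WT fasting, and at 214, 232, 210, 234 and 283 CPM in NAMPT LKO fasting livers. Suclg2 (ENSMUSG00000061838, chr6:95474134-95718837, minus strand) was at 163 and 157 CPM in WT refed, at 165, 188 and 161 CPM in WT fasting, and at 164, 170, 154, 186 and 243 CPM in NAMPT LKO fasting livers. The highest value of each was that of NAMPT LKO mouse 5, and the other 4 NAMPT LKO livers lay within or next to the WT range.

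Fumarase, encoded by Fh1 (ENSMUSG00000026526, chr1:175600374-175625635, minus strand), hydrates fumarate to malate, and part of it works in the cytosol. Fh1 was at 135 and 155 CPM in WT refed, at 186, 155 and 155 CPM in WT fasting, and at 175, 172, 175, 142 and 247 CPM in NAMPT LKO fasting livers. Its coefficient of variation was 18.6% over the 10 libraries and 10.6% without NAMPT LKO mouse 5, where Idh3a, at 17.0%, varied most of the members. Malate dehydrogenase 2, encoded by Mdh2 (ENSMUSG00000019179, chr5:135778480-135790398, plus strand), closes the cycle by oxidizing malate to oxaloacetate and works in the malate-aspartate shuttle as well. Mdh2 was at 177 and 188 CPM in WT refed, at 165, 177 and 176 CPM in WT fasting, and at 162, 157, 149, 161 and 133 CPM in NAMPT LKO fasting livers. The range of the 5 NAMPT LKO livers ended below that of the 5 WT livers, by a narrow margin (162 CPM at the highest against 165 CPM at the lowest). NAMPT LKO fasting livers did not overlap WT fasting livers for 3.99% and WT refed livers for 33.5% of all genes tested. No share was computed against the 5 WT livers together.

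**Figure D1:**
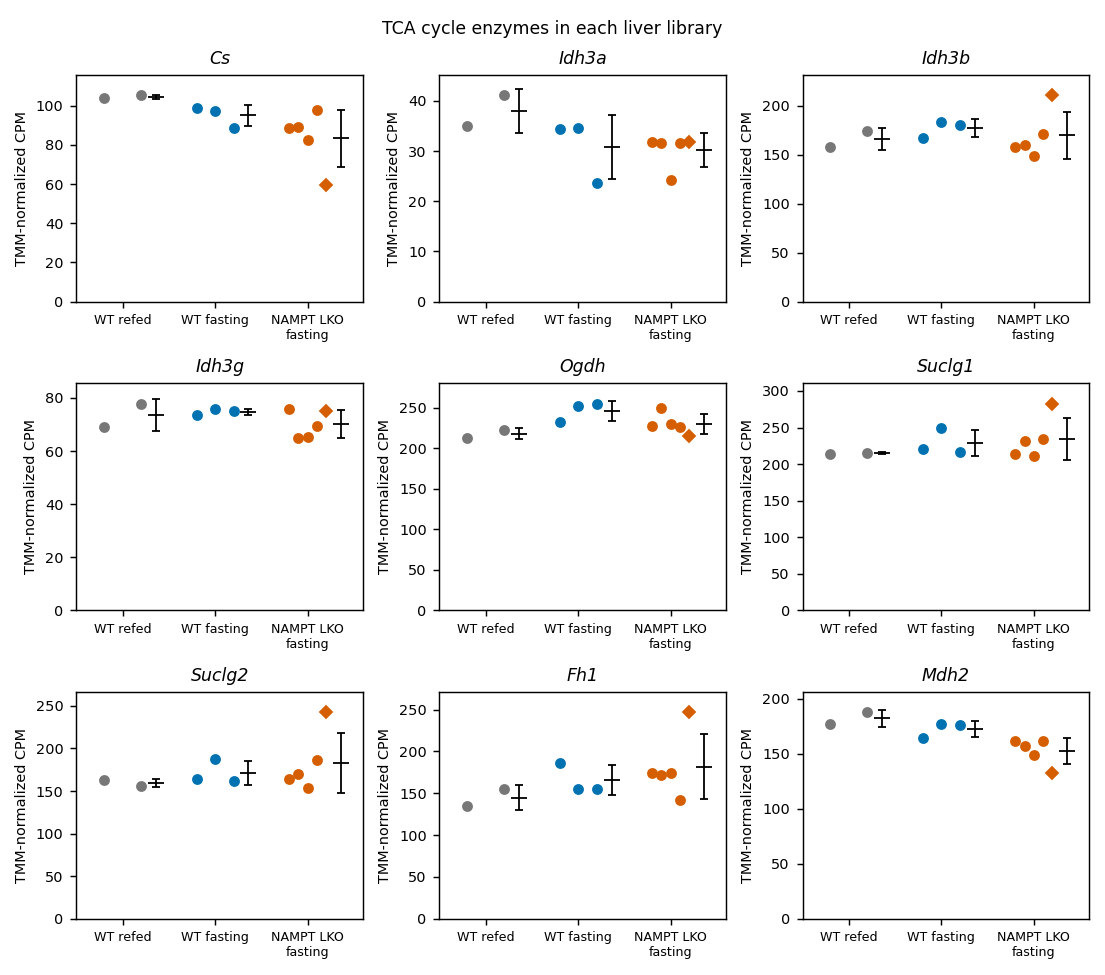
TMM-normalized CPM (y axis, from 0) of each of the 9 members in the 2 WT refed, 3 WT fasting and 5 NAMPT LKO fasting libraries (points), with the group mean and SD (bars) and NAMPT LKO mouse 5 as a diamond. The diamond is the highest NAMPT LKO point for Idh3a (by a small margin), Idh3b, Suclg1, Suclg2 and Fh1 and the lowest for Cs, Ogdh and Mdh2.

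The median coefficient of variation over the 10 libraries was 10.3% for the 9 members. It was 20% for all 13444 genes tested and 14.3% for the 3301 genes with a mean in the members' range of CPM. Without mouse 5 these medians were 7.12%, 17.0% and 10.8%. Overlap with other genes was slight. Idh3b shares 5 exonic bases, 0.146% of its exonic length, with Nop56 on the opposite strand and the other 8 share none with a gene of the annotation used.

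Levels scaled by exonic length were then put in order. Mean levels over the 10 libraries were 78.7 CPM per kb for Mdh2 and 76.8 CPM per kb for Suclg2, followed by 50.1 for Idh3b, 50.0 for Fh1 and 49.6 for Suclg1. Ogdh was at 42.6, Cs at 32.3, Idh3g at 26.7 and Idh3a at 13.3 CPM per kb. Mdh2 was above Suclg2 in 8 of 10 libraries, and these neighbours did not differ beyond their spread (SD 7.63 and 11.5). Idh3b, Fh1 and Suclg1 could not be ordered, since each was above the next in 5 of 10 libraries. Cs was above Idh3g in 9 of 10 libraries, with NAMPT LKO mouse 5 the exception, and each other step held in 10 of 10. The catalytic subunit Idh3a was thus the lowest of the 9 in every library, below both of its partner subunits. Exonic length counts all annotated exons of a gene, so levels of genes with long unused exons are understated.

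**Figure D2:**
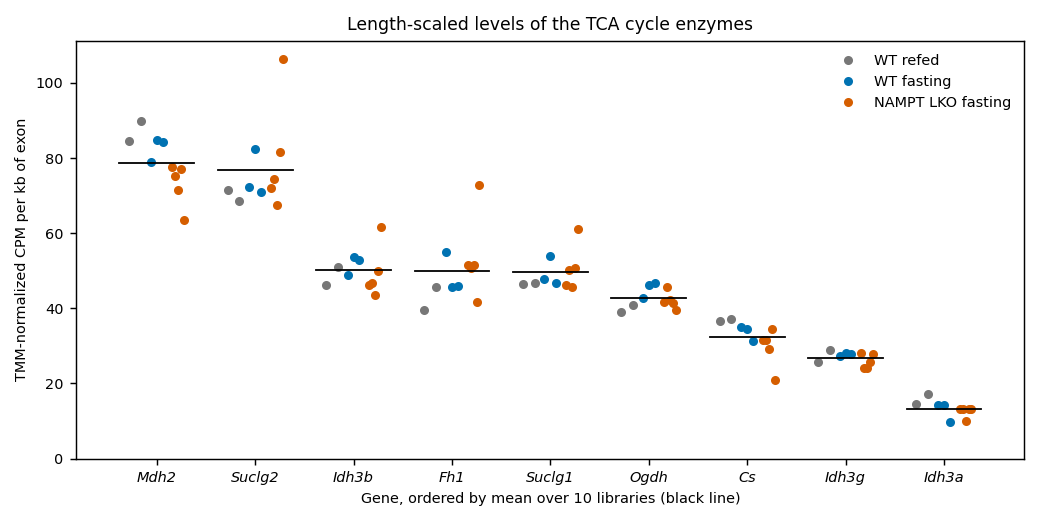
TMM-normalized CPM per kb of exon (y axis, from 0) of the 9 members in order of their mean (black line), with 1 point per library coloured by group. Mdh2 and Suclg2 lie highest, at means of 78.7 and 76.8, and Idh3a lowest, at 13.3.

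Fasting was compared with refeeding in livers with intact Nampt. None of the 9 members passed the test, against 7.04% of the 13444 genes tested (edgeR's quasi-likelihood test, Benjamini-Hochberg adjusted p at or under 0.05). The members' count was also 0 at an unadjusted p under 0.05, against 22.3% of all genes, and limma, DESeq2 and edgeR's exact test also called 0. The estimates ran from -0.30 ± 0.18 (SE) for Idh3a to 0.20 ± 0.20 for Fh1 on the log2 scale, with a median of 0.09 against 0.04 over all genes tested. The median size of the difference was 0.10 for the members and 0.27 for all genes. The lowest adjusted p was 0.361, for Idh3a. Its estimate was -0.15 without WT fasting mouse 3, which also had the lowest share of counts on the mitochondrial genome. The estimate for Fh1 was 0.10 without WT fasting mouse 1 and 0.09 without WT refed mouse 1. That for Ogdh, which lay above the refed livers in 3 of 3 fasting livers, was 0.18 ± 0.11 (adjusted p = 0.386, edgeR). For 5 of the 9 members the fasting and refed groups did not overlap (Cs and Idh3a lower, and Ogdh, Suclg1 and Fh1 higher, in fasting), and this held for 49.7% of all genes tested. The 95% intervals of the members lay between -0.70 and 0.64.

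The effect of hepatocyte Nampt loss was compared in fasted livers. None of the 9 members passed the test, and 0.00744% of genes, which was Nampt alone, did. The count of members was again 0 at an unadjusted p under 0.05, against 6.03% of all genes, and limma, DESeq2 and edgeR's exact test called 0. Estimates ran from -0.19 ± 0.14 for Cs to 0.13 ± 0.16 for Fh1 on the log2 scale, with a median of -0.06 against 0.00 over all genes. The median size was 0.10 for the members and 0.14 for all genes. Mdh2 had the lowest p of the members, with a log2 fold change of -0.18 ± 0.10 (adjusted p = 0.837, edgeR), and was the only member whose groups did not overlap, as held for 3.99% of all genes. Both ends of the list rested on mouse 5. Without it the estimate was -0.09 for Cs and 0.00 for Fh1, while that for Mdh2 was -0.13. With the trend of each library with GC content removed, the estimate for Mdh2 was -0.10. The bile duct cell markers Krt19, Krt7, Epcam and Sox9 were all among the genes tested, and none of them passed here. Summed, they were between 13.7 and 15.5 CPM in NAMPT LKO and between 6.54 and 11.5 CPM in the 5 WT livers. Singly, only Epcam lay above all 5 WT livers (1.26 to 2.61 CPM against at most 1.06 CPM). Krt19 and Krt7 lay above the WT fasting livers but overlapped the WT refed livers, and Sox9 overlapped the WT fasting livers. No share of non-overlapping genes was computed against the 5 WT livers together. The part of these markers in the values of the members was not tested. The 95% intervals lay between -0.50 and 0.49.

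Fasted NAMPT LKO livers were also set against WT refed livers, a comparison that differs in both diet and genotype and shares its control livers with the first. None of the 9 members passed the test, against 11.2% of genes tested, and 1 of the 9, Mdh2, was under an unadjusted p of 0.05, against 26.1%. Estimates ran from -0.33 ± 0.17 for Idh3a to 0.33 ± 0.19 for Fh1 on the log2 scale, with a median of 0.03 over the members and over all genes. The median size was 0.20 for the members and 0.27 for all genes. Mdh2 differed by -0.26 ± 0.11 (adjusted p = 0.159, edgeR), with a 95% interval from -0.50 to -0.02. Cs differed by -0.33 ± 0.16 (adjusted p = 0.227, edgeR), and by -0.22 without mouse 5. Idh3a differed by -0.33 in the same fit, with an adjusted p of 0.238 (edgeR). All 5 NAMPT LKO livers lay below both refed livers for these 3 genes, and the groups did not overlap for 33.5% of all genes tested. The estimate for Fh1 was 0.20 without mouse 5. DESeq2 and edgeR's exact test called 0 members, but limma with weights for each library called 2 of the 9, in a fit that called 31.8% of all genes. In that fit Mdh2 differed by -0.22 (adjusted p = 0.0259, limma) and Cs by -0.25 (adjusted p = 0.0373, limma), while Idh3a was at an adjusted p of 0.0523 (limma). The 95% intervals of the quasi-likelihood fit lay between -0.70 and 0.75, and the farthest bound stood at 67.6% above the refed level.

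**Figure D3:**
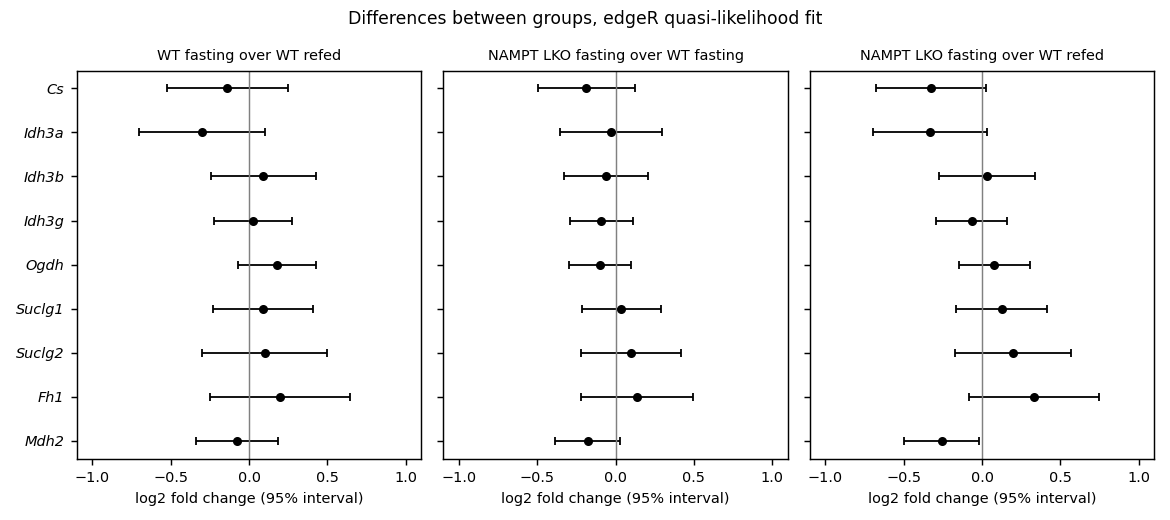
Log2 fold change (x axis, point) and 95% interval (bar) of each member in the 3 comparisons, from the edgeR fit of all 10 libraries. All 27 intervals lie inside -1 to 1 and 20 of them inside -0.5 to 0.5, and the interval of Mdh2 in NAMPT LKO fasting over WT refed is the one that does not include 0.

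Ratios between members, or between a member and its partner, do not depend on the scaling between libraries. A library's GC trend can still enter them where the paired genes differ in GC content, as Mdh2 (55.5%) and Fh1 (45.6%) do. No ratio was taken with that trend removed. The ratios were taken from length-scaled levels and compared with exact two-sided permutation tests over libraries. The beta subunits of succinyl-CoA ligase together (Suclg2 and Sucla2) stood at 2.19 to 2.30 times Suclg1 in 9 of 10 libraries and at 2.85 times in NAMPT LKO mouse 5. The size of this ratio rests on the exonic lengths used, 4617 bases for Suclg1 and 2279 for Suclg2, and is no measure of subunit proportions. This ratio was nearly the same in WT refed (2.21 ± 0.00388 SD, n = 2) and WT fasting livers (2.20 ± 0.0199, n = 3). The split between the forms was less even, with a Suclg2 to Sucla2 ratio of 1.94 to 2.34 in the other 9 libraries and 1.56 in mouse 5. Within isocitrate dehydrogenase 3, Idh3b was at 3.19 and 2.98 times Idh3a in WT refed, at 3.41, 3.74 and 5.39 times in WT fasting, and at 3.50, 3.54, 4.31, 3.80 and 4.66 times in NAMPT LKO fasting livers. All 8 fasted livers were above both refed livers. Idh3g to Idh3a showed the same order, with 1.68 and 1.76 in refed and 1.83 to 2.84 in fasted livers. Both ratios share Idh3a, which was at 34.9 and 41.1 CPM in refed and at most 34.5 CPM in fasted livers, so they are not independent observations. Among single genes, the groups did not overlap for 49.7% in WT fasting and 33.5% in NAMPT LKO fasting, each against WT refed. No such share was computed for ratios.

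Mdh2 and Fh1 catalyse successive steps, and the Mdh2 to Fh1 ratio was 2.13 and 1.97 in WT refed, 1.43, 1.85 and 1.84 in WT fasting, and 1.51, 1.48, 1.39, 1.85 and 0.874 in NAMPT LKO fasting livers. All 8 fasted livers lay below both refed livers, and the fasted groups overlapped. Separation from the refed livers was common among single genes (49.7% and 33.5%, as above). Of the 6 ratios, none passed. The lowest p after Benjamini-Hochberg adjustment over the 6 was 0.4 for WT fasting against WT refed, 0.821 for NAMPT LKO fasting against WT fasting and 0.19 for NAMPT LKO fasting against WT refed (exact permutation tests). The smallest p that these group sizes allow is 0.2, 0.0357 and 0.0952, so the comparisons with the 2 refed livers could not have passed. In NAMPT LKO fasting against WT fasting, a single ratio at 0.0357 could not have passed either after adjustment over the 6, so a change in a single ratio could not be detected.

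**Figure D4:**
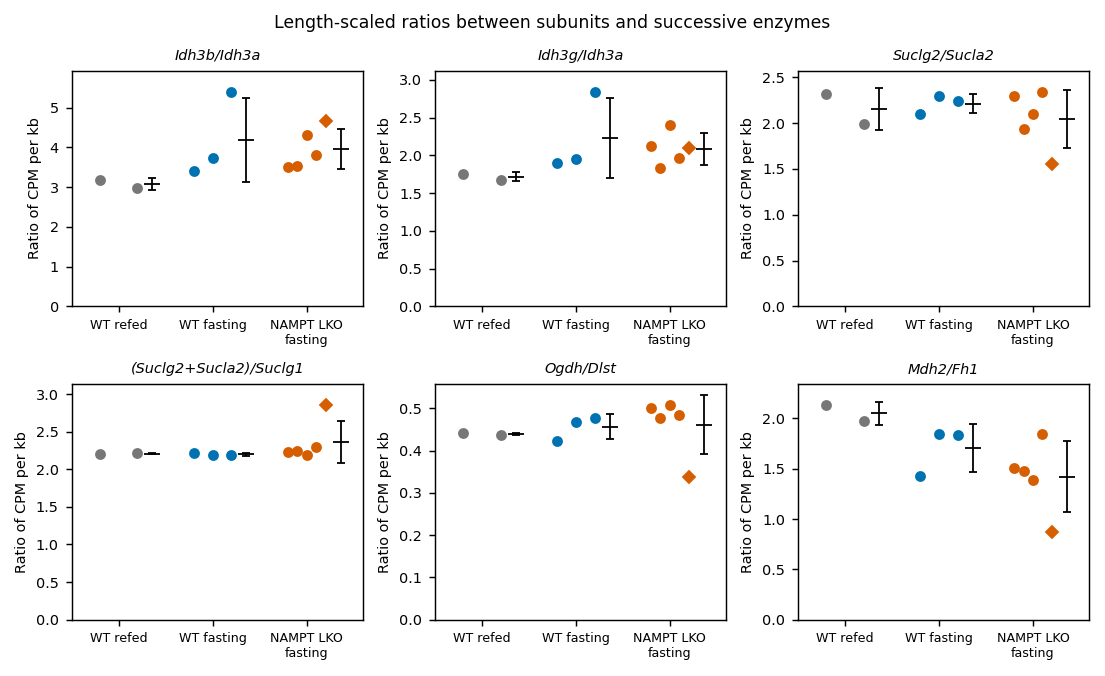
Ratios of length-scaled levels (y axis, from 0) in each library by group, with the group mean and SD (bars) and NAMPT LKO mouse 5 as a diamond. The ratio of the summed beta subunits to Suclg1 is flat at 2.19 to 2.30 apart from the diamond at 2.85, and Mdh2 over Fh1 is highest in the 2 refed livers.

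NAMPT LKO mouse 5 lay outside the range of the other 4 NAMPT LKO livers for 8 of the 9 members, as it did for 69.4% of all genes. The other 4 libraries were at an end of the group for 2 to 4 members each and for 23.2% to 36.7% of genes. In mouse 5, Fh1 was higher than the mean of the others by 0.58, Suclg2 by 0.53, Idh3b by 0.40 and Suclg1 by 0.34 on the log2 scale. Cs differed by -0.60, Mdh2 by -0.24 and Ogdh by -0.11. Of the partner subunits, Sucla2 differed by 1.00 and Dld, the E3 component of the dehydrogenase complexes, by 0.91. The deviation of mouse 5 ran with GC content across 13369 genes (Spearman's rho -0.566, a description across genes, which are not independent replicates). With the GC trend of each library removed, 6 of the 9 members were outside the range of the other 4. Cs stayed below by -0.70, Suclg2 stayed above by 0.34 and Fh1 by 0.30, and Mdh2, the member richest in GC at 55.5%, went from below the others to above them by 0.07. The parts of GC content, of the mitochondrial genome share and of this mouse's own state in these values were not tested.

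**Figure D5:**
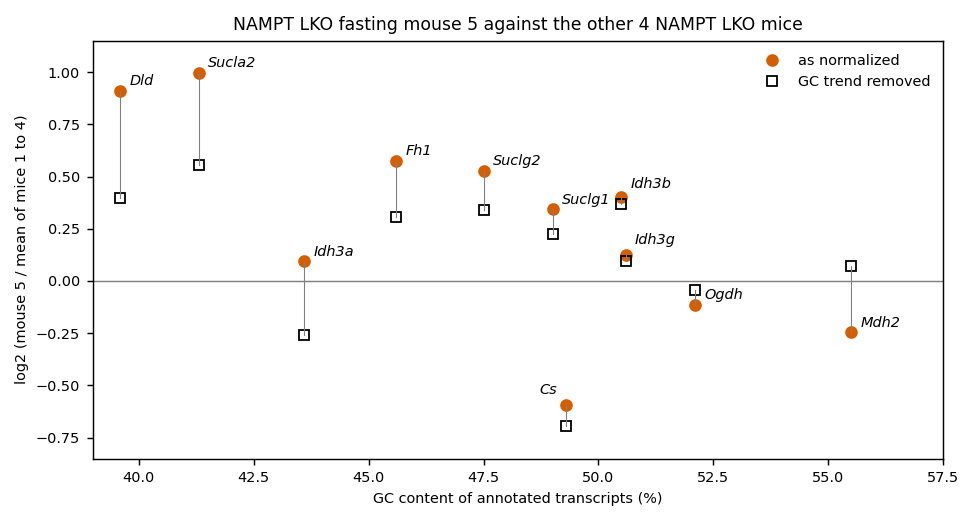
Log2 ratio of NAMPT LKO mouse 5 to the mean of NAMPT LKO mice 1 to 4 (y axis) against the GC content of the annotated transcripts (x axis, %) for the 9 members, Sucla2 and Dld, before (filled) and after (open) removal of the GC trend. Genes low in GC lie up to 1.00 above the other mice and Cs lies at -0.60, and most values move toward 0 after removal while those of Cs and Idh3a do not.

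The members did not all vary together from liver to liver. Across the 10 libraries, Pearson's r between log2 levels was 0.973 for Suclg1 and Suclg2, 0.885 for Cs and Mdh2, and -0.859 for Cs and Fh1. Without mouse 5 these were 0.921, 0.746 and -0.532, and the value for Idh3b and Mdh2 went from -0.232 to 0.705. These are descriptions over libraries that share groups and scaling. Among genes outside the 9, those whose log2 levels followed the mean of the members most closely over 10 libraries were Ndufb9, a complex I subunit (r = 0.903), Seh1l of the nuclear pore (0.902), Chic1 (0.900), Mpc1, a subunit of the mitochondrial pyruvate carrier (0.893), and Vdac1, the outer membrane channel (0.887). Without mouse 5 their values were between 0.872 and 0.934. These genes were picked for the highest r among the 13444 tested, and over 10 libraries such a choice alone gives high values. The values without mouse 5 come from the same libraries and are no separate check.

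The other subunits of the cycle gave no call either. Of 9 such genes (Dlst, Dld, Sucla2, Sdha, Sdhb, Sdhc, Sdhd, Mrps36 and Ogdhl), Ogdhl was too low to be tested and 0 of the other 8 passed in any comparison. In the order of the comparisons above, 7.04%, 0.00744% and 11.2% of all genes tested passed. At an unadjusted p under 0.05 the count was also 0 in each (edgeR), against 22.3%, 6.03% and 26.1% of all genes. A count of 0 among so few genes says little about these subunits. Their median log2 fold changes were 0.03 for WT fasting against WT refed, -0.04 for NAMPT LKO fasting against WT fasting and -0.03 for NAMPT LKO fasting against WT refed. Of 8 counterparts outside the mitochondrial NAD+-linked cycle (Aco1, Idh1, Idh2, Mdh1, Acly, Me1, Me2 and Me3), Me3 was too low and 0 of 7 passed. The shares of all genes that passed were those just given. Acly, which splits citrate in the cytosol, had the lowest p among them, at a log2 fold change of -0.42 ± 0.17 in WT fasting against WT refed (adjusted p = 0.168, edgeR).

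Calls in the lists around the cycle fell among entry and exit genes, carriers and regulators. Of 9 entry and exit genes, 1 rose in WT fasting against WT refed livers, where 7.04% of all genes were called, and 2 in NAMPT LKO fasting against WT refed livers, where 11.2% were. Pck1, the cytosolic phosphoenolpyruvate carboxykinase that draws oxaloacetate into gluconeogenesis, was at 1622 and 1545 CPM in WT refed, at 4565, 3816 and 4199 CPM in WT fasting, and at 3660, 3753, 4300, 2981 and 3224 CPM in NAMPT LKO fasting livers. It rose by 1.41 ± 0.17 (adjusted p = 0.00138) and by 1.18 ± 0.16 (adjusted p = 0.00158) on the log2 scale in these comparisons (edgeR). Got1, the cytosolic aspartate aminotransferase of the malate-aspartate shuttle, rose by 1.18 ± 0.31 in NAMPT LKO fasting against WT refed livers (adjusted p = 0.0354, edgeR) and stood at 1.04 ± 0.33 in WT fasting against WT refed livers (adjusted p = 0.0858). The call for Got1 was lost without either refed library (adjusted p = 0.285 and 0.151, edgeR), and without NAMPT LKO mouse 2 (0.0522) or mouse 3 (0.0661). Of 8 carriers, 1 passed in 1 comparison, where 11.2% of all genes did. Slc25a12, an aspartate-glutamate carrier, rose by 0.54 ± 0.16 in NAMPT LKO fasting against WT refed livers (adjusted p = 0.0487, edgeR). It stood at 0.32 ± 0.17 in WT fasting against WT refed livers (adjusted p = 0.289, edgeR). The call was lost under scaling by library size alone (adjusted p = 0.167, edgeR). It was lost as well under RLE size factors (0.051), without the mitochondrial genome (0.0527), under both other filters (0.0635 and 0.112) and in a fit of the compared groups alone (0.0837, edgeR). Leaving out either refed library (0.122 and 0.422) also ended it, as did a fit without NAMPT LKO mouse 1, 2 or 3 (0.0817 to 0.095, edgeR).

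The last list held Ppargc1a, Ppargc1b, Pprc1, Esrra, Esrrg, Nrf1, Gabpa, Gabpb1, Tfam and Ppara as regulators of mitochondrial gene expression. It also held the sirtuins Sirt3 and Sirt5. Of these 12 genes, 1 was called in WT fasting against WT refed livers, where 7.04% of all genes were. In NAMPT LKO fasting against WT refed livers 2 were called, where 11.2% of all genes were. Esrrg, an estrogen-related receptor, stood at 0.83 ± 0.27 in NAMPT LKO fasting against WT refed livers (adjusted p = 0.0703, edgeR). It rose by 1.12 ± 0.29 in WT fasting against WT refed livers (adjusted p = 0.0397, edgeR). The call was lost when any 1 of the 5 WT libraries was left out, with adjusted p between 0.0597 and 0.241 (edgeR). Ppargc1a, which encodes the coactivator PGC1α, rose by 1.76 ± 0.42 in NAMPT LKO fasting against WT refed livers (adjusted p = 0.0236, edgeR), with adjusted p of 0.185 and 0.187 when either refed library was left out. In WT fasting against WT refed livers Ppargc1a stood at 1.13 ± 0.43 (adjusted p = 0.149, edgeR). Ppara, the fatty acid receptor PPARα, stood at 0.48 ± 0.16 there (adjusted p = 0.107, edgeR). Ppara rose by 0.53 ± 0.15 in NAMPT LKO fasting against WT refed livers (adjusted p = 0.0454, edgeR). Under scaling by library size alone Ppara did not pass in that comparison (adjusted p = 0.142, edgeR). It also did not pass under both other filters (0.0571 and 0.0747) or in a fit of the compared groups alone (0.0826, edgeR). Nor did it pass without either refed library (0.0855 and 0.436) or without NAMPT LKO mouse 2, 3 or 4 (0.0574 to 0.0868, edgeR). No gene of the 5 lists passed in NAMPT LKO fasting against WT fasting livers (edgeR), where 0.00744% of all genes did. At an unadjusted p under 0.05 there was 1 gene, against 6.03% of all genes. That gene was Gpt, the cytosolic alanine aminotransferase, at -0.29 ± 0.12 (adjusted p = 0.827, edgeR), and it is named after its values were seen.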

How the data were processed

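Total liver RNA was poly-A selected, converted to cDNA and sequenced as single 50-base reads. The authors aligned reads with STAR (2.5.1a in the submitters' processing notes) to GRCm38 with Ensembl annotation and used featureCounts (1.4.6-p5) for the deposited gene counts, which hold uniquely aligned reads. The use of strand in counting is not given in the sources used here. The authors also deposited CPM and RPKM values, which scale the same counts by library total and by exonic length. The study gives 12 h of fasting where the labels give 24 h, and calls the refed mice fed.

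The genes tested, 13444, are those over 1 CPM in 1 or more libraries, without rRNA genes. After TMM normalization, edgeR 4.0.16 in R 4.3.3 was used for a quasi-likelihood test in a single fit of the 10 libraries with a mean for each group, Benjamini-Hochberg adjustment over all genes tested, and calls at an adjusted p at or under 0.05. SE is the log2 fold change divided by the root of F, and 95% intervals use the fit's degrees of freedom. Library totals ranged from 30603080 to 43434139 counts. Nothing in the labels beyond 1 library per mouse says how mice were housed or handled, so p-values measure the spread between these mice. No replicate pair held identical values. The test was checked on simulated data. Alternatives were limma 3.58.1 (voomWithQualityWeights), DESeq2 1.42.0, edgeR's exact test, other scalings and filters, fits of the compared groups only, removal of each library's GC trend (loess span 0.5), a block for replicate number and leaving out each library in turn. Leaving out NAMPT LKO mouse 5 and WT fasting mouse 3 together was chosen after seeing the data.

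The 9 members, the other lists, the markers and the motifs were chosen with earlier results of these data known. Named genes were the members, Nampt, up to 6 called genes of each other list, and the 5 genes most correlated with the members' mean, with Sucla2, Dlst and Dld as partner subunits and Acly and Gpt named after their values were seen. A gene of the cycle outside the 9 members is not reported here. Sums of cell type markers use library totals without TMM. Besides those in the text, endothelial markers summed to between 141 and 186 CPM, stellate cell markers to between 167 and 266, bile duct cell markers to between 6.54 and 15.5, red blood cell markers to between 318 and 1251, lymphocyte markers to between 6.05 and 13.8 and adipocyte markers to between 0.294 and 1.78.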

Additional observations from a re-analysis of the deposited data

Results flagged for a closer look

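Among 17 values compared over the 5 NAMPT LKO fasting livers, 4 had a sample whose gap to the nearest other exceeded Dixon's limit of 0.71 of the range, where chance gives about 0.85. Idh3a was at 24.3 CPM in NAMPT LKO mouse 3, with a gap of 0.974 of the range. The other 3 were all in NAMPT LKO mouse 5. The ratio of Suclg2 and Sucla2 together to Suclg1 was 2.85 there (gap 0.839), the ratio of Ogdh to Dlst, the E2 component of the same complex, was 0.338 against 0.477 to 0.507 in the other 4 (gap 0.823), and 21.1% of its counts were on the mitochondrial genome (gap 0.770). The causes were not tested.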

How the results depend on the processing

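Over 522 refits of the 27 differences, 26 changed sign, in 8 differences no larger than 0.135 on the log2 scale, and 2 passed the threshold. Both were in NAMPT LKO fasting against WT refed livers with voomWithQualityWeights, which called 2 members, Cs (-0.248) and Mdh2 (-0.221). The cause was not tested. The sign changes and shifted medians below are log2 fold changes.

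In WT fasting against WT refed livers, Idh3g was at -0.033 under library size alone and at -0.000501 with the GC trend removed. With each library left out in turn it ranged from -0.062 (without WT refed replicate 1) to 0.108, and the median of the members ranged from 0.0176 to 0.0999. The log2 Suclg2 to Sucla2 ratio ranged from -0.0719 to 0.152 with either refed library left out. Nampt ranged from -0.101 (without WT fasting replicate 3) to 0.555, and was at -0.0971 with NAMPT LKO mouse 5 and WT fasting mouse 3 both left out.

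In NAMPT LKO fasting against WT fasting livers, Suclg1 and Suclg2 were at -0.0591 and -0.0514 with voomWithQualityWeights, at -0.0643 and -0.0754 with libraries numbered 1 to 3 alone, and at -0.0757 and -0.0631 with mouse 5 and WT fasting mouse 3 both left out. Fh1 was at -0.0417 in the last of these, and Suclg1 at -0.00236 under library size alone. With each library left out in turn, Suclg1 ranged from -0.0398 to 0.102, Suclg2 from -0.0251 to 0.169 and Fh1 from -0.000518 to 0.235, with each lowest value without NAMPT LKO mouse 5. Idh3a ranged from -0.18 to 0.0662 and was positive without WT fasting mouse 1 or 2 (0.0609) or NAMPT LKO mouse 3 (0.0416).

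In NAMPT LKO fasting against WT refed livers, Idh3b, which was the median member, was at -0.0501 with voomWithQualityWeights, at -0.0725 under library size alone, at -0.0597 without NAMPT LKO replicate 5, at -0.06 with mouse 5 and WT fasting mouse 3 both left out and at -0.0357 without WT refed replicate 1. Ogdh was at -0.0094 under library size alone, and Idh3g ranged from -0.146 to 0.0244 (without WT refed replicate 2, which moved the median to 0.106).

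Deviations of same-numbered mice correlated weakly and positively (r 0.0782 to 0.104 over 3 pairs), within the range of the 12 other pairs (-0.167 to 0.13). The replicate block over libraries 1 to 3 of the fasted groups called 0 members, with Suclg1 at -0.0628 and Suclg2 at -0.0732, and 0 genes in all, Nampt being at -2.78 (adjusted p = 0.106, edgeR). It was not fitted for the comparisons with the refed livers.

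The count of all genes called depended more on the choices than that of the members. It ranged from 106 to 3331 around 946 for WT fasting against WT refed, from 0 to 24 around 1 for NAMPT LKO fasting against WT fasting and from 207 to 4281 around 1510 for NAMPT LKO fasting against WT refed. With 1 refed library left, that library is assumed to vary like the other groups.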
